A study of Rattus norvegicus with 2 samples.

Results

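Circular RNAs (circRNAs) of 6 ATP-binding cassette (ABC) genes were examined in a sequencing study of bone cancer pain in rats. They were all rows of the deposited circRNA table with ABCC1, ABCC4, ABCA5, ABCD3, ABCD4 or ABCF3 as the sole host gene, which gave 42 of 17260 circRNAs. ABCC1 had 17, ABCC4 16, ABCD3 5, ABCA5 2, and ABCD4 and ABCF3 1 each.

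A circRNA is a closed loop formed when a downstream splice site is joined back to an upstream one, and it is counted by reads across that back-splice junction. ABC proteins bind and hydrolyse ATP, and most use it to move substrates across membranes. ABCC1 and ABCC4 are exporters of the plasma membrane that carry organic anions, and are known for the export of drugs from tumour cells. A host gene can give several circRNAs, since different splice sites can be joined to each other.

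Per the labels, the bone cancer pain (BCP) group received live Walker256 cells, a rat mammary carcinoma line grown as ascites, in the marrow cavity of the tibia. The control group had the same surgery with Walker256 cells that had been boiled for 20 minutes. Each group had 3 animals, which were killed 21 days after surgery. Their age and sex, and the strain that received the tibial injection, are not given. The labels name the material in one field as cancer cells and in another as cells of the spinal cord. Both groups had 1 library each, made after ribosomal RNA removal and a digest of linear RNA with RNase R. Whether RNA of the 3 animals was pooled is not stated.

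With 1 library per group there was no replicate spread, and the conditions could not be tested. Ratios divide the share of junction reads in the BCP library by the share in the control, with an exact 95% interval that covers counting error only. The control library held 159941 junction reads and the other 151685, so 1 read was worth 6.25 and 6.59 RPM (junction reads scaled to a library of 1000000). The table carried human symbols and human circBase identifiers (circBase is a catalogue of published circRNAs). Each of the 6 hosts has a rat gene of the same name, and for 0 of 6 the chromosome number in the table was that of the rat gene (all hosts 6.02% of 4402). The chromosome numbers of these hosts thus conflict with the rat build rn6, which the submitters' processing notes name. Positions below are as the table gives them, with no build or strand named there. A circRNA is said to begin at its lower and end at its higher coordinate, whatever the direction of transcription. Of 13 neuronal markers 1 had a circRNA as its sole host (NAV3, 105 control and 94 BCP reads). Of 10 oligodendrocyte markers 2 had one (MBP and MYRF, together 2 and 5 reads). Of 7 astrocyte markers 1 had one (GJA1, 0 and 4), and of 6 microglial markers none. Of 10 markers of carcinoma and dividing cells 6 had one (together 164 and 172), all 6 of them genes of cell division. Markers with none included RBFOX3, SNAP25, MOG, GFAP, AQP4, EPCAM and KRT8, and a gene without a circRNA can still have linear RNA. The labelled tissue could therefore not be checked by these markers, and a library is called by its label throughout.

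Summed over their circRNAs, the 6 hosts are described in 3 groups, set by size alone. ABCC1, ABCC4 and ABCD3 had ratios between 1.00 and 1.37. ABCA5 was lower in the BCP library, and ABCD4 and ABCF3 were higher there on 10 reads each. The interval of ABCD4 (0.56 to 14.7) spans those of ABCC1, ABCC4 and ABCD3, so counting error does not set it apart from them. A host was called higher or lower by size alone, at 2-fold with 0.5 reads added to each library and with 10 or more reads over both, which all 6 had. By this rule 2 of 6 were higher and 1 of 6 lower. ABCF3 reached 10 reads through the BCP library alone, so its call follows from the rule. Of all 3039 host genes with as many reads, 13.3% were higher and 14.2% lower (27.5% in either direction), and 6 hosts are too few to set 3 called apart from that share. The median log2 ratio of the 6 was 0.32, against -0.03 for all those host genes.

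**Figure D1:**
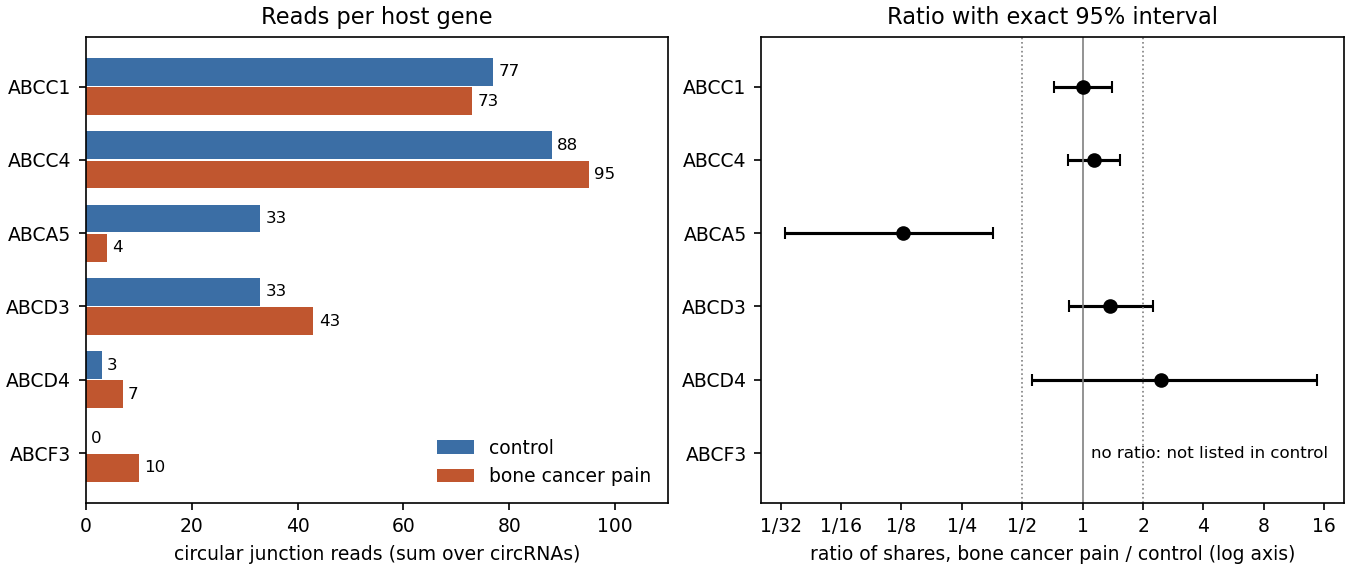
Circular junction reads of the 6 ABC host genes in the control and BCP libraries (left, bars from 0), and the ratio of shares with its exact 95% interval on a log axis (right, dotted lines at 2-fold). The intervals of ABCC1, ABCC4, ABCD3 and ABCD4 include 1, that of ABCA5 lies below 2-fold lower, and ABCF3 has no ratio.

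ABCC1, also called MRP1, exports glutathione conjugates such as leukotriene C4. Its circRNAs had 77 reads in the control and 73 in the BCP library, or 481 RPM in each. The ratio was 1.00 (0.72 to 1.40). In a bulk library, fewer cells of a type and less RNA per cell cannot be told apart. With 17 circRNAs ABCC1 ranked 39th of 4994 host genes by their number, against a median of 2. Of the 17, 7 were listed in both libraries, 5 in the control library alone and 5 in the BCP library alone, so each library listed 12. The 5 listed for the control alone held 16 of its reads, and the 5 listed for the other library alone held 13, with at most 5 reads on any of them.

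The equal sums of ABCC1 were made of unequal circRNAs. The most abundant, hsa_circ_0000679 (chromosome 16, 16218646 to 16219768, spanning 1123 bp), had 30 control and 14 BCP reads, or 188 and 92.3 RPM. The ratio was 0.49 (0.24 to 0.96), and with 0.5 reads added it stayed just inside the 2-fold limit, which it passed under both other scalings tried. It held 39.0% of ABCC1 reads in the control library (28.0 to 50.8) and 19.2% in the BCP library (10.9 to 30.1). Against all other ABCC1 circRNAs its odds ratio was 0.37 (0.16 to 0.82). It was picked by its reads, and the others include those called higher, given next.

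In the opposite direction, hsa_circ_0008120 (16180681 to 16184445) had 4 control and 14 BCP reads, or 25 and 92.3 RPM (ratio 3.69, 1.16 to 15.4). The longer hsa_circ_0038132 (16180681 to 16196574) had 3 and 10 reads, or 18.8 and 65.9 RPM (3.51, 0.90 to 19.9). Both begin at the same lower coordinate. Together they had 7 and 24 reads (3.62, 1.51 to 9.94), and they were the 2 ABCC1 circRNAs called higher. Set against hsa_circ_0000679, this pair had an odds ratio of 7.13 (2.31 to 24.6), a contrast chosen after the values were seen.

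The other ABCC1 circRNAs with 10 or more reads were close to equal. The 208 bp hsa_circ_0038138 had 8 reads in each library. The counts were 8 and 7 for hsa_circ_0038111, and 6 and 5 for hsa_circ_0000676. Their intervals all include 1 and reach past 2-fold in both directions, so at this depth a 2-fold difference would not be told from none. The remaining 11 circRNAs had from 2 to 5 reads in all.

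ABCC4, also called MRP4, exports cyclic nucleotides and prostaglandins. Its circRNAs had 88 reads in the control and 95 in the BCP library, or 550.2 and 626 RPM, the most of the 6 hosts. The ratio was 1.14 (0.84 to 1.54). Of its 16 circRNAs, 7 were listed in both libraries, 4 in the control alone and 5 in the BCP library alone. Their spans ran from 385 to 72621 bp with a median of 13598.5, against 3937 for ABCC1 and 5765 for all circRNAs.

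The most abundant ABCC4 circRNA differed between the libraries. In the control it was hsa_circ_0006871 (chromosome 13, 95829961 to 95840796), with 38 reads, and in the BCP library it had 12, or 238 and 79.1 RPM (ratio 0.33, 0.16 to 0.65). In the BCP library it was hsa_circ_0006659 (95813443 to 95822882), with 28 reads against 9, or 185 and 56.3 RPM (3.28, 1.5 to 7.90). The first held 43.2% of ABCC4 reads in the control (32.7 to 54.2). The second held 29.5% in the BCP library (20.6 to 39.7). Against the other ABCC4 circRNAs the odds ratio was 0.19 for the first (0.083 to 0.42) and 3.64 for the second (1.54 to 9.42). Both circRNAs were picked by their reads, and each is among the others that its counterpart was set against. Without hsa_circ_0006871 the ABCC4 sum had a ratio of 1.75, a removal that can only raise it. The opposite removal, of hsa_circ_0006659, left 79 control and 67 BCP reads.

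**Figure D2:**
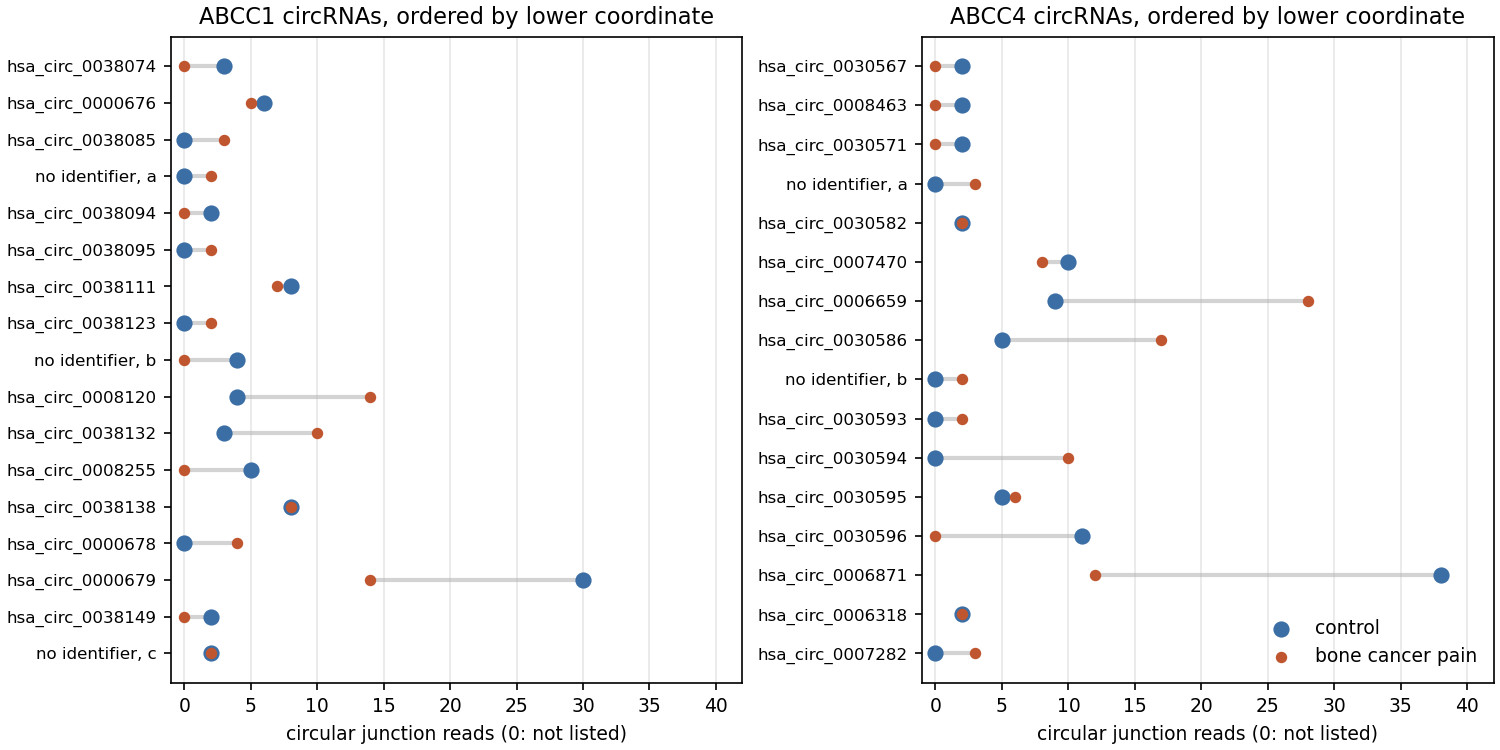
Circular junction reads of each of the 17 ABCC1 and 16 ABCC4 circRNAs in the control library (large points) and the BCP library (small points), with 0 for a circRNA not listed. The longest grey lines higher in the control are those of hsa_circ_0000679, hsa_circ_0006871 and hsa_circ_0030596. Those higher in the BCP library are of hsa_circ_0008120, hsa_circ_0006659, hsa_circ_0030586 and hsa_circ_0030594.

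The other 3 called ABCC4 circRNAs were these. The circRNA hsa_circ_0030586 (95813443 to 95840796) had 5 control and 17 BCP reads (3.59, 1.27 to 12.4). In the BCP library hsa_circ_0030594 (95822786 to 95840796) had 10 reads, and it was not listed in the control. The reverse held for hsa_circ_0030596 (95829961 to 95839146), with 11 control reads and none listed in the other library. No ratio is given for these last 2, since the lowest value listed in either library was 2 reads and an unlisted circRNA can have had 1. Between these extremes, hsa_circ_0007470 had 10 and 8 reads (0.84, 0.29 to 2.37) and hsa_circ_0030595 had 5 and 6 (1.27, 0.32 to 5.24). The remaining 9 ABCC4 circRNAs had at most 4 reads over both libraries.

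ABCC4 circRNAs reused few back-splice ends. The 16 had 8 lower and 10 higher coordinates, and 15 of them shared an end with another (93.8%), as did 13 of 17 for ABCC1 (76.5%) and 61.7% of all circRNAs with a single host. A host with more circRNAs has more chances to share an end, and the median host had 2. Hosts of like number were not compared. The ratio differed with the lower coordinate, though hsa_circ_0007470 and hsa_circ_0030595, given above, were near 1. The 3 circRNAs that begin at 95829961 had 54 control and 18 BCP reads (0.35, 0.19 to 0.61). The 3 that begin at 95813443 had 24 and 53 (2.33, 1.41 to 3.94). The odds ratio between these sites was 6.53 (3.05 to 14.5), again a contrast chosen after the values were seen.

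Sums by higher coordinate differed too. The 2 ABCC4 circRNAs that end at 95822882 had 9 and 31 reads (3.63, 1.69 to 8.67), of which 9 and 28 were those of hsa_circ_0006659. The 2 that end at 95839146 had 11 and 2. They were hsa_circ_0030596, listed in the control alone, and hsa_circ_0030593, listed in the BCP library alone, so no ratio is given. Since each circRNA has both ends, these sums share reads with those by lower coordinate. The 4 ABCC4 circRNAs that end at 95840796 had 45 control and 41 BCP reads in sum (0.96, 0.61 to 1.5). That sum joined the 38 and 12 reads of hsa_circ_0006871, the 5 and 17 of hsa_circ_0030586, the 0 and 10 of hsa_circ_0030594, and 2 in each library for hsa_circ_0030582. Of these 4, 3 were listed in both libraries, and hsa_circ_0030594 in the BCP library alone.

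**Figure D3:**
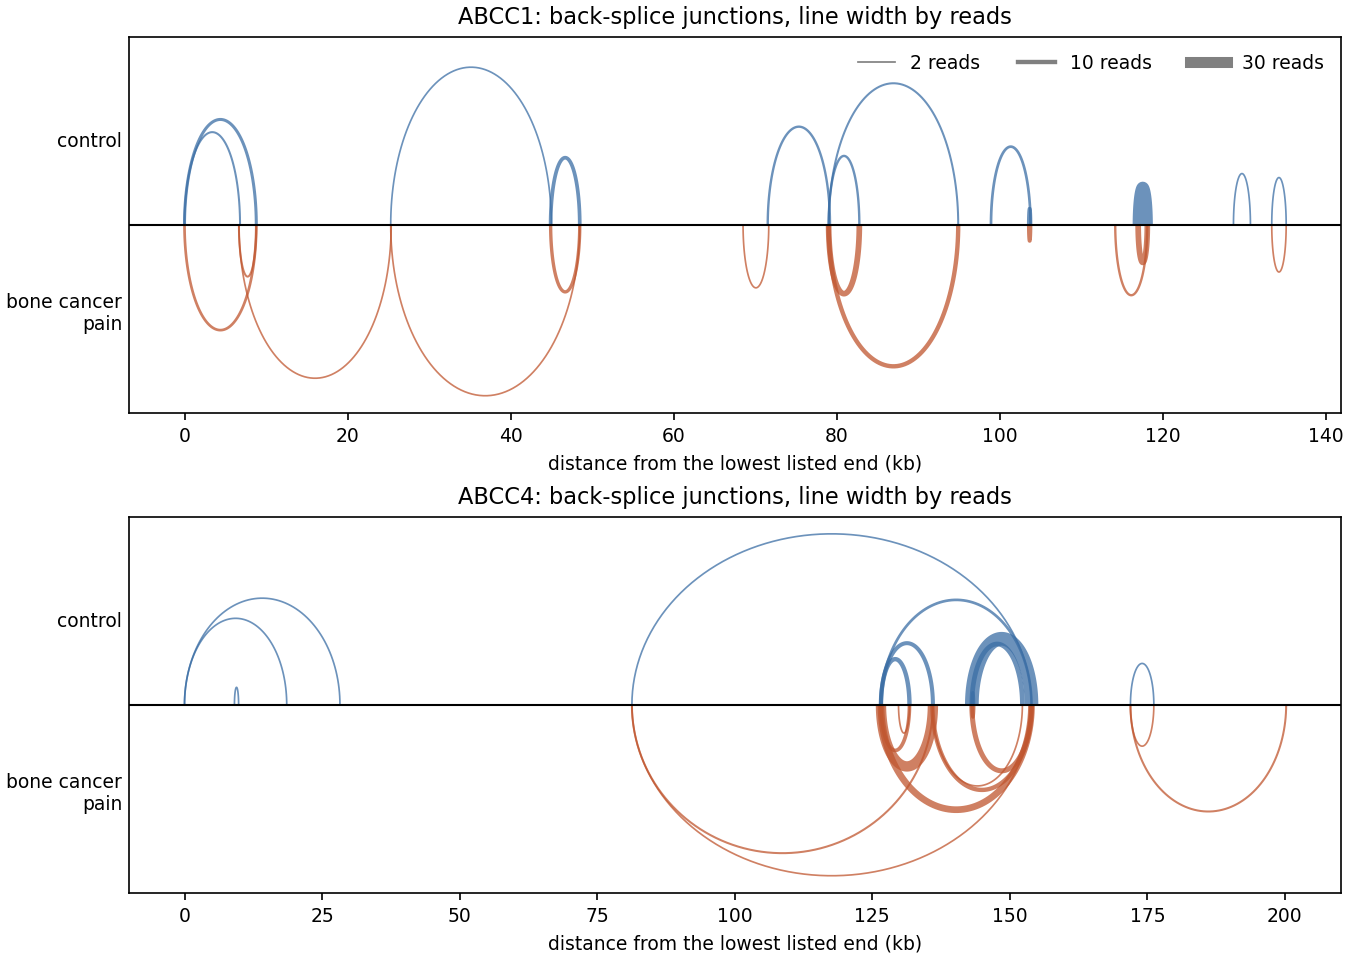
Back-splice junctions of ABCC1 and ABCC4 as arcs from lower to higher coordinate, in kb from the lowest listed end of each gene, with the control library above and the BCP library below the line. Line width grows with reads, and arc height has no unit. In ABCC4 the widest control arc is hsa_circ_0006871, while the widest arcs below begin farther left, at the end shared by hsa_circ_0006659 and hsa_circ_0030586.

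The 6 hosts had 17 circRNAs with 10 or more reads, of which 7 were called higher, 3 lower and 7 between. Under both other scalings, which add hsa_circ_0000679, 4 were lower. Among all 5415 circRNAs with as many reads, 17.3% were higher and 17.0% lower (34.3% in either direction). The calls of hsa_circ_0030594 and the ABCF3 junction (0 and 10 reads each) and hsa_circ_0030596 (11 and 0) follow from the rule alone. Each of them reached 10 reads through 1 library. The 17 are also few and come from 6 hosts, so they are not independent of each other. ABCC4 held 3 higher and 2 lower circRNAs. Such opposite calls within a host were common, being found in 56.9% of the 51 host genes with 7 or more circRNAs of 10 or more reads, so ABCC4 does not stand apart in this. ABCC1 had 2 higher and none lower among 6 (1 lower under both other scalings), where 44.2% of the 86 hosts with 6 or more had both.

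ABCA5 is a lipid transporter of lysosomes and late endosomes. It had 33 control and 4 BCP reads, or 206 and 26.4 RPM (ratio 0.13, 0.033 to 0.36), which is 7.82-fold lower. Of the 3039 host genes with 10 or more reads, 58 had a lower log2 ratio with 0.5 reads added. Nearly all of its reads came from a junction at chromosome 17, 67270084 to 67280213, which had 30 and 4 (0.14, 0.036 to 0.40). The other ABCA5 junction (67285318 to 67299047) had 3 control reads and none listed in the BCP library. Neither of the 2 had a circBase identifier, unlike 14 of 17 in ABCC1 and 14 of 16 in ABCC4.

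**Figure D4:**
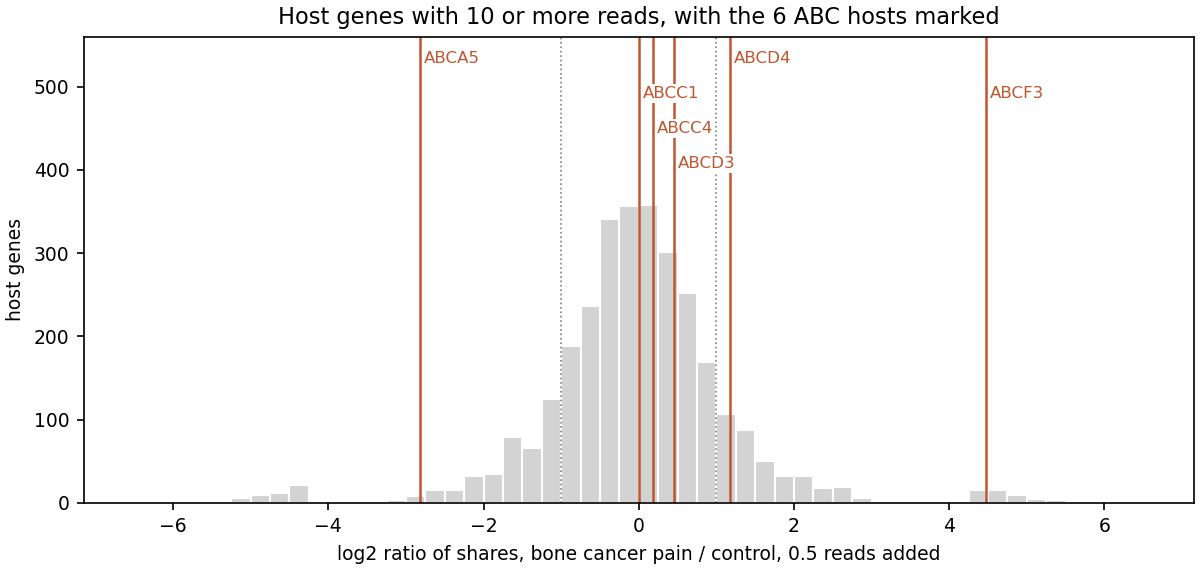
Log2 ratio of shares with 0.5 reads added for the 3039 host genes with 10 or more reads (grey bars, number of host genes), with the 6 ABC hosts as lines and dotted lines at 2-fold. ABCC1, ABCC4 and ABCD3 lie in the bulk, ABCA5 is in the lower tail, and ABCF3 is in the separate group at the right, of hosts with few or no control reads.

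The ABCD proteins move substrates across the membranes of inner organelles. ABCD3 (PMP70) imports acyl-CoA substrates into peroxisomes. It had 33 control and 43 BCP reads, or 206 and 283 RPM (1.37, 0.85 to 2.23). Of these, 26 and 35 lay on hsa_circ_0013235 (chromosome 1, 94953098 to 94956803; 1.42, 0.83 to 2.46), the member circRNA with the most reads. That junction held 78.8% of ABCD3 reads in the control (61.1 to 91.0) and 81.4% in the BCP library (66.6 to 91.6), so its place was alike in both.

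The other 4 ABCD3 circRNAs were each listed in 1 library. In the control, hsa_circ_0006524 had 4 reads and the junction 94924163 to 94933563 had 3. In the BCP library, the junction 94921289 to 94933563 had 6 and hsa_circ_0013232 had 2. The 2 junctions without an identifier share their higher coordinate, with 3 control reads on one and 6 BCP reads on the other. Counts this low do not show a shift between them.

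ABCD4 takes part in the export of vitamin B12 from lysosomes. Its single circRNA, hsa_circ_0032547 (chromosome 14, 74756186 to 74757202), had 3 control and 7 BCP reads, or 18.8 and 46.1 RPM. The ratio of 2.46 has an interval from 0.56 to 14.7 and so includes 1. ABCF3 belongs to a subfamily without membrane domains and is not a transporter. Its single junction (chromosome 3, 183904029 to 183904371, 343 bp) had no circBase identifier, 10 BCP reads or 65.9 RPM, and none listed in the control.

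Across the 42 circRNAs, 17 were listed in both libraries (40.5%, 25.6 to 56.7), beside 41.9% of all 17260. Their median span was 8423.5 bp, beside 5765, and 32 had a circBase identifier (76.2%, 60.5 to 87.9), beside 54.0%. Their median was 4 reads over both libraries, beside 5 for all. The 12 listed for the control alone had a median of 3 reads, as did the 13 listed for the BCP library alone.

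Other genes of the ABC family had few reads on circRNAs with a single host, and those named here had fewer than 10 over both libraries. The surfactant lipid transporter ABCA3 had 9 control reads over 3 circRNAs, the cholesterol exporter ABCA1 3 and ABCB10 2, with none listed in the other library. ABCF2 had 5 and ABCB9 2 BCP reads with none listed in the control, and the ribosome recycling factor ABCE1 had 2 and 3. The drug exporters ABCB1 and ABCG2 had no circRNA listed.

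Genes that act beside these transporters were taken from 3 further lists, again counted as sole hosts. Their counts of called genes are small, and are to be read beside the 13.3% of all hosts called higher and the 14.2% called lower. Of 21 genes for glutathione and conjugation, 3 had 10 or more reads, 1 of them higher and none lower (median log2 ratio 0.74, against -0.03 for all hosts). GCLM, a subunit of the enzyme that starts glutathione synthesis, had 25 and 40 reads (1.69, 0.999 to 2.90), and KEAP1, which restrains the oxidative stress factor NRF2, had 35 and 20 (0.60, 0.33 to 1.07). The higher one was glutathione reductase, GSR, with 2 and 16 reads and no circRNA listed in both libraries, named after its values were seen.

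Of 31 peroxisome and vitamin B12 genes, 3 had 10 or more reads, 1 higher and none lower (median -0.25). PEX6, an ATPase of peroxisome assembly, had 17 and 11 reads (0.68, 0.29 to 1.54). The vitamin B12-dependent methionine synthase MTR had 39 and 31 (0.84, 0.51 to 1.38). The higher one was PEX13, with 4 and 11 reads (2.90, 0.86 to 12.5), named after its values were seen. Of 27 cyclic nucleotide genes, 9 had 10 or more reads, with 1 higher, 1 lower and 7 between (median 0.08), a share near the 27.5% of all hosts called in either direction. The lower was the cAMP phosphodiesterase PDE4B, with 133 and 60 reads on 1 circRNA (0.48, 0.34 to 0.65). PDE1C was highest among those with 20 or more reads, at 28 and 42 (1.58, 0.96 to 2.65). The higher one, named after its values were seen, was PDE4D, with 2 and 8 reads (4.22, 0.84 to 40.8).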

How the data were processed

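The submitters' processing notes name CASAVA 1.8, BWA and the build rn6 without saying what each was used for. Not given in the sources used here are the program that called the circRNAs and its minimum of reads. The values the authors deposited are headed TPM per the file headers, and were treated as RPM. Above a placeholder of 0.001, 100% were whole multiples of 1 step per library (within 0.001 reads), whatever the circRNA, so no value was scaled by length. Reads were obtained as value over step, and the placeholder was taken as 0. The lowest listed value was 2 reads.

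Ratios have exact conditional binomial (Clopper-Pearson) 95% intervals, shares exact binomial ones, and odds ratios exact conditional ones. PCR copies are not independent molecules, so intervals cover counting error only. Host sums used rows with 1 host name, leaving out 2082 with several, 23 with none and 43 with a date or small RNA name. Calls by size are described in the results. All 6 hosts were named, with each circRNA of 10 or more reads, the other ABC genes, and the highest and lowest genes of 20 or more reads in each further list. A result that this rule names is not reported here. The members and lists were chosen with earlier results of these data known. Because identifiers are human, chromosome Y and X inactivation genes were left out. The alternatives were scaling by the median ratio or by TMM (a weighted trimmed mean), other read minimums, 2 reads added, a 1.5-fold limit and other choices of rows. The scripts were tested on simulated data. Statistics used scipy 1.17.1 and numpy 2.4.6 under Python 3.11.15, with tables in pandas 2.3.3 and plots in matplotlib 3.10.9.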

Additional observations from a re-analysis of the deposited data

How the results depend on the processing

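No paired analysis was possible because each group had 1 library, and for the same reason no library could be left out. The ratios of ABCC1, ABCA5, ABCD3 and ABCD4 stayed within their counting intervals under every setting that gave a value, and that of ABCC4 under all but the removal of its most abundant circRNA (1.75). Without its most abundant circRNA ABCA5 had no ratio, and with circBase identifiers alone it had no circRNA. ABCD4 has a single circRNA, so the removal did not apply to it, and with circBase identifiers alone its ratio stayed at 2.46. ABCF3 has no ratio, so neither setting applied to it. No row with several hosts named a member. The number of the 6 hosts at least 2-fold higher was 2, and 1 with 2 reads added and 0 with a minimum of 20 reads, since ABCD4 and ABCF3 have 10 reads each. For member circRNAs, 7 were higher and 3 lower. A minimum of 20 reads left 2 higher and 2 lower, and no minimum gave 18 higher and 14 lower. Without a minimum, each circRNA listed in 1 library is called by the rule alone, which held for 13 in the BCP library and 12 in the control. The share of all circRNAs called was not computed at these minimums. Median of ratios scaling shifted all log2 ratios by -0.08 and TMM by -0.01.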

Other observations

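A junction on chromosome 4 (424133 to 431300) named both the ABC pseudogene ABCA11P and the zinc finger gene ZNF721 as hosts. Its 2 reads were from the bone cancer pain library, with none listed for the control, and it entered none of the sums above.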
